A study of Mus musculus with 6 samples.

Results

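Versican, 4 small proteoglycan genes and 4 ADAMTS protease genes were followed in the lungs of endotoxin-treated mice that had received recombinant antithrombin or saline. The set was chosen by gene name, with earlier results of these data known. It holds 9 genes: Vcan (versican), Bgn (biglycan), Dcn (decorin), Lum (lumican), Srgn (serglycin), Adamts1, Adamts4, Adamts5 and Adamts9. They are read by 12 of the 56605 probes of the array, and all 12 were well above background on all 6 arrays, so no gene of the set was lost to the filter on dim probes. The tests ran over 32450 features that passed that filter, 17515 of them genes with a symbol and the others single probes without one.

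The 6 mice were male C57BL6 animals aged 10 weeks, and every one was injected intraperitoneally with lipopolysaccharide (LPS, endotoxin) at 20 mg/kg after 16 h without food. In the antithrombin group, 3 mice received recombinant antithrombin, the plasma inhibitor of thrombin and factor Xa, at 750 IU/kg 3 h and 24 h after LPS, and in the saline group 3 mice received saline at those times. Whole-lung RNA taken 30 h after LPS was labelled with Cy3 and hybridised to Agilent one-colour arrays, with 1 array per mouse. Mice without LPS were not analysed here, so each comparison is between antithrombin and saline in endotoxin-treated lungs and says nothing of the response to LPS itself.

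Versican is a large chondroitin sulfate proteoglycan of the provisional matrix, where it binds hyaluronan through its globular end and collects in inflamed lung. Biglycan, decorin and lumican are small leucine-rich proteoglycans that bind collagen fibrils, and soluble biglycan is also known as a ligand of Toll-like receptors. Serglycin is the proteoglycan inside the granules of blood cells, mast cells and endothelium, and its highly sulfated chains bind positively charged proteases and chemokines. ADAMTS1, ADAMTS4, ADAMTS5 and ADAMTS9 are secreted metalloproteases that cleave versican and related proteoglycans, and TIMP3 is the main tissue inhibitor of ADAMTS4 and ADAMTS5.

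Promoter windows are shown for versican, the gene of the set that was past the threshold in 1 of the alternatives run, for 2 of its proteases and for serglycin, so that the matches listed after them can be read in place. Of the 9 genes, 5 had an entry in the RefSeq promoter table of assembly GRCm38.p6, with 6 windows in all because Srgn has 2 starts. Each window is the 250 bases before the annotated start, 5′ to 3′ on the gene's strand, which is the minus strand for all 4. Capitals mark matches, on either strand, to an NF-kB pattern (GGG, any 5 bases, CC) and to the TATA box TATAAA. The windows are chr13:89742513-89742762 for Vcan, chr6:92943535-92943784 for Adamts9, chr16:85803114-85803363 for Adamts1 and chr10:62527446-62527695 for the first of the Srgn starts.
Vcan: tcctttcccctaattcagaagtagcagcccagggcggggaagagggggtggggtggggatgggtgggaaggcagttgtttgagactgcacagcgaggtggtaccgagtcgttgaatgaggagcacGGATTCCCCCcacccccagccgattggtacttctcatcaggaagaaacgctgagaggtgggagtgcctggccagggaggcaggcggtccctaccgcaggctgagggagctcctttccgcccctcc
Adamts9: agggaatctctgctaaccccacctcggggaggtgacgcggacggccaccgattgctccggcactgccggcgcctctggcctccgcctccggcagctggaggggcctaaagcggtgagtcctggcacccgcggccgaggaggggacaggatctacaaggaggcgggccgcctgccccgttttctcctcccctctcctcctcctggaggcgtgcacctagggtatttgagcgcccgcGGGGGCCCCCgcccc
Adamts1: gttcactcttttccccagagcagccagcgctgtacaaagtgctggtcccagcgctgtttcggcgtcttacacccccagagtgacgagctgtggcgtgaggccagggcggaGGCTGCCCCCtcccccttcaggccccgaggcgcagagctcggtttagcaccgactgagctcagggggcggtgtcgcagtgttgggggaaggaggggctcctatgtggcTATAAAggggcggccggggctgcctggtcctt
Srgn: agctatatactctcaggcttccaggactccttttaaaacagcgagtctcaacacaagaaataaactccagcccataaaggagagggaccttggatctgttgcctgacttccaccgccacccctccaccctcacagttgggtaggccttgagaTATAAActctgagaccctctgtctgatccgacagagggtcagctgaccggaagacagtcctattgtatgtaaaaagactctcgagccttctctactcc

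The NF-kB pattern was found once in the Vcan window, starting 125 bases before the gene's start, once in Adamts9 at 15 bases and once in Adamts1 at 140 bases. It was not among the letters of the Srgn window shown, but the window of the other Srgn start, not shown, held it once, 183 bases before that start. Of all 32851 windows of this length 45.8% held it. A TATA box lay 32 bases before the start of Adamts1 and 98 bases before the Srgn start whose window is shown, against 12.4% of all windows. The GC box GGGCGG matched 2 times in Vcan, 1 time in Adamts9 and 3 times in Adamts1, and was held by 32.7% of all windows. It also matched 3 times in the Bgn window, not shown, and in neither Srgn window. No window of the set held the AP-1 pattern TGANTCA, which 6.75% of all windows hold. The CCAAT box matched 1 time in Vcan and in no other window of the set, against 33.9% of all windows. All patterns were searched on both strands, and the GC box of Adamts9 overlaps its NF-kB match. The windows of Vcan, Adamts9 and Adamts1 were 62.4%, 71.2% and 65.6% GC and the Srgn window shown 49.6%, beside a median of 52.4% over all windows.

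Between 69.85% and 72.1% of probes were well above background on each array, and no spot was saturated. Of 14 lung epithelial markers, 13 were on the array under that symbol and all 13 were well above background on all 6 arrays. The array of saline mouse 2 correlated on average at 0.993 with the antithrombin arrays and at 0.989 with the other saline arrays, and on the first principal component (51.89% of the variance) it lay at 7.86, against 24.88 to 49.45 for the antithrombin arrays and -48.32 and -62.39 for saline mice 1 and 3. Results that rest on saline mouse 2 are also given without it, as a measure of how far they depend on 1 mouse. Leaving out the control array most like the antithrombin arrays gave 3421 features past the adjusted threshold in place of 2, so a call made in that setting is no support for a difference. Values are log2 signals minus the 75th percentile of their array, so a probe at that percentile reads 0, and no gene's level can be set against another's because probes differ in brightness. In whole lung, fewer cells of a type and less RNA per cell cannot be told apart.

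None of the 9 genes differed between antithrombin and saline at an adjusted p of 0.05 (limma, two-sided, Benjamini-Hochberg over all 32450 features). Of all features tested 2, or 0.00616%, passed that threshold, 1 higher and 1 lower (0.00308% each), so 0 of 9 is what such a background gives. Before adjustment 2 of the 9, Vcan and Adamts4, had a p under 0.05, both higher with antithrombin, beside 21.6% of all features at that level, 8.73% higher and 12.9% lower. The 3 antithrombin values lay wholly above the 3 saline values for 2 genes, Adamts4 and Adamts9, against 10.7% of all features, and for no gene did they lie wholly below, against 18.1%, or 28.8% of features apart in either direction. The median difference of the 9 genes was 0.05 log2 and that of all features -0.05 log2, and the median size of the difference without its sign was 0.213 log2 for both. Of the 9 differences 5 were above 0, against 43% of all features.

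**Figure D1:**
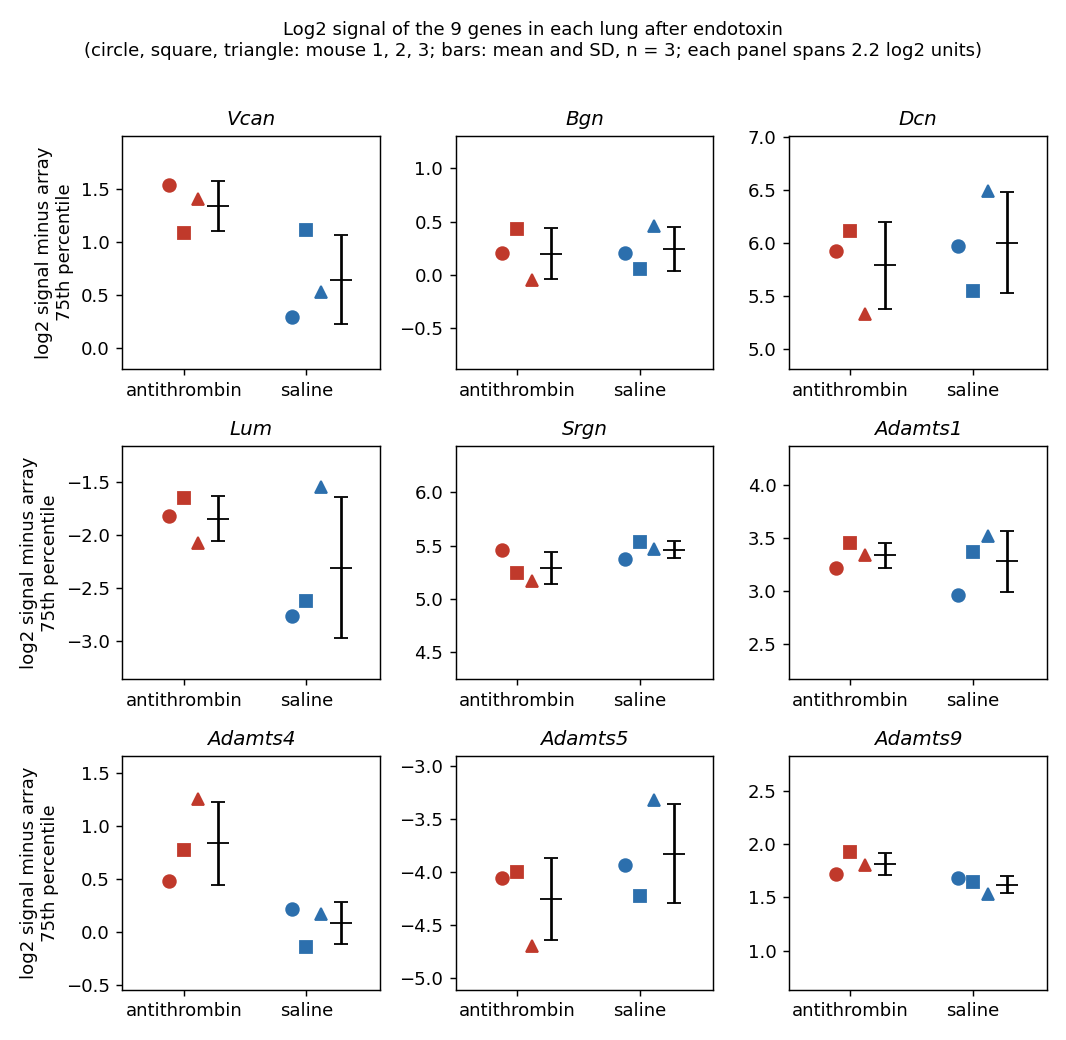
Log2 signal of each of the 9 genes in each lung, with antithrombin mice in red on the left and saline mice in blue on the right. The y axis is log2 signal minus the array's 75th percentile and spans 2.2 log2 units in every panel, and bars are the mean and SD of 3 mice. The groups are apart for Adamts4 and Adamts9, and for Vcan saline mouse 2 lies among the antithrombin mice.

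Versican had the second largest difference of the set. Its brightest probe read 1.54, 1.08 and 1.40 in antithrombin lungs, against 0.29, 1.11 and 0.53 in saline lungs. Saline mice 1 and 3 lay below every antithrombin mouse, while saline mouse 2 lay just above the lowest of them. The means were 1.34 ± 0.23 with antithrombin and 0.64 ± 0.42 with saline (SD, n = 3 each, log2 signal), a difference of 0.70 log2 (SE 0.23, 95% interval 0.14 to 1.25), or 1.62-fold, with limma's adjusted p = 0.181 and unadjusted p = 0.0216. The unadjusted p was under 0.05 in 13 of the 18 alternatives run. It was over 0.05 with the replicate block (0.0513) and without saline mouse 1 (0.0668), saline mouse 3 (0.0613), antithrombin mouse 1 (0.0716) or antithrombin mouse 3 (0.0580), all limma, with differences between 0.52 and 0.70 log2. Without saline mouse 2 the difference was 0.93 log2 (SE 0.17, 95% interval 0.50 to 1.36) and limma's adjusted p = 0.0365, in a setting where 4.65% of all features were called higher and 5.89% lower. Vcan was then the only gene of the set called, and the call depends on that 1 mouse.

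The array carries 2 further Vcan probes, both listed under another Vcan transcript than the brightest one. The first read -0.38, -0.63 and -0.50 in antithrombin lungs, against -1.36, -0.69 and -1.10 in saline lungs. Here the groups did not overlap, and the difference was 0.55 log2 (SE 0.18, 95% interval 0.11 to 0.98, limma's adjusted p = 0.176 with all probes tested singly). The dimmest probe read -2.55, -2.77 and -2.39 in antithrombin lungs, against -3.69, -2.47 and -2.86 in saline lungs, and its groups overlapped with a difference of 0.43 log2 (95% interval -0.29 to 1.15, adjusted p = 0.419 in the same limma fit). On all 3 probes saline mouse 1 was lowest and saline mouse 2 was the highest of the saline mice.

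**Figure D2:**
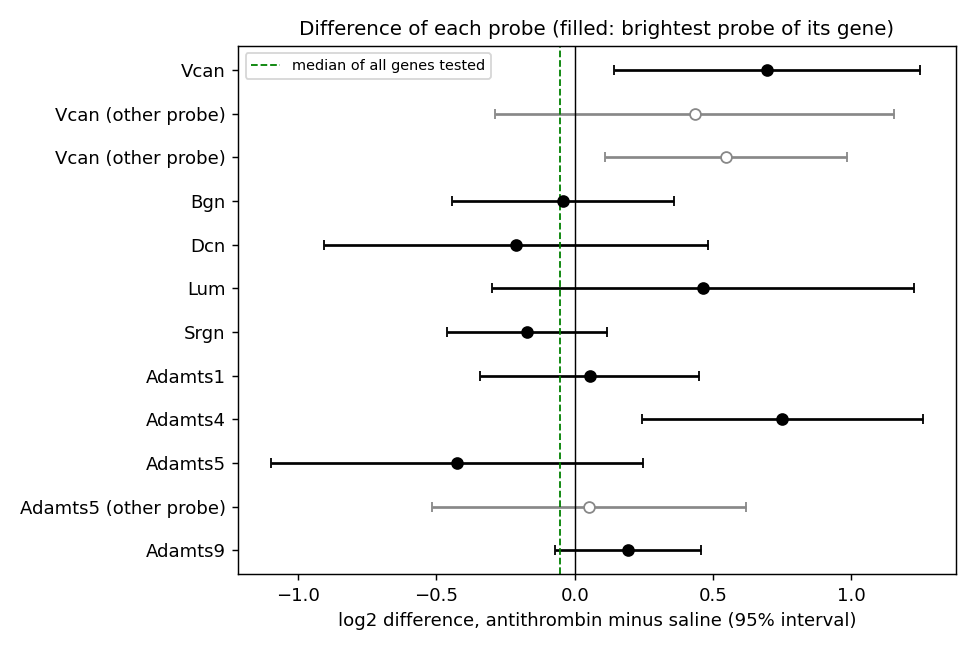
Difference between antithrombin and saline for each of the 12 probes, in log2 units on the x axis, with 95% intervals from limma. Filled black points are the brightest probe of a gene, open grey points its other probes, and the dashed line is the median of all features, -0.05. All 3 Vcan probes lie to the right of 0, while the 2 Adamts5 probes lie on opposite sides of it.

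Versican works in a matrix of hyaluronan and its binding proteins, and of 17 such partner genes 16 were tested. None passed the adjusted test, and 2 had an unadjusted p under 0.05, both higher with antithrombin. At that level 8.73% of all features were higher and 12.9% lower. The median difference of the list was 0.09 log2. Has2, the gene of a hyaluronan synthase, read -4.41, -3.98 and -2.62 in antithrombin lungs, against -5.51, -5.06 and -5.25 in saline lungs, with every antithrombin mouse above every saline mouse. The difference was 1.61 log2 (SE 0.44, limma's adjusted p = 0.157), and its antithrombin values spread far more than its saline values. Ptx3, which encodes a pentraxin that joins the hyaluronan matrix, read -2.90, -2.07 and -2.63 in antithrombin lungs, against -3.93, -3.04 and -3.74 in saline lungs, also without overlap (1.04 log2, SE 0.30, adjusted p = 0.161, limma). Ptx3 was called without saline mouse 2, at 1.30 log2 and limma's adjusted p = 0.0393. In that setting 4.65% of all features were called higher and 5.89% lower, and the median of the list turned to -0.10 log2. Fbln2, the gene of fibulin-2, which binds versican, had the third smallest p and lay the other way at -0.66 log2 (adjusted p = 0.239, limma).

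Among the other lecticans and the link proteins, 4 of 7 genes were tested and none passed the adjusted test. Ncan, the gene of neurocan, read -4.93, -5.36 and -4.92 in antithrombin lungs, against -6.77, -5.81 and -5.83 in saline lungs, and its probe stood clear of background in 2 of the 3 saline lungs. Hapln1, which encodes the link protein that fastens lecticans to hyaluronan, read -6.35, -6.77 and -8.34 in antithrombin lungs, against -5.00, -5.98 and -5.90 in saline lungs, and was well above background on 1 of the 3 antithrombin arrays. The 2 genes thus differed in opposite directions near the background, by 1.07 log2 for Ncan (adjusted p = 0.157) and -1.53 log2 for Hapln1 (adjusted p = 0.188, both limma). Bcan (brevican) differed by 0.27 log2 with overlapping groups. Aggrecan, the best known substrate of ADAMTS4 and ADAMTS5 in cartilage, was too dim on these arrays to be tested (Acan).

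Cells that may make versican include fibroblasts, smooth muscle and monocytes, and their marker lists were read beside it. Of 14 monocyte and macrophage markers, 3 were higher at an unadjusted p under 0.05, none was lower and none passed the adjusted test, with a median of 0.14 log2, beside 8.73% of all features higher and 12.9% lower at that level. Their list score, the mean over genes of the log2 signal minus the saline mean, was 0.27, 0.03 and 0.38 in antithrombin lungs, against -0.03, 0.28 and -0.25 in saline lungs, so saline mouse 2 was again the highest saline lung. Their summed linear signal, relative to the 75th percentile, ran from 698 to 748 with antithrombin and from 712 to 836 with saline, with overlap. Of 15 smooth muscle and pericyte markers 7 were higher before adjustment and none lower (median 0.37 log2), and their score ran from 0.26 to 0.47 with antithrombin and from -0.03 to 0.04 with saline. Of 20 fibroblast markers 3 were higher and none lower (median 0.12 log2), and their summed signal ran from 222 to 232 with antithrombin and from 208 to 286 with saline. All 14 monocyte and all 20 fibroblast markers were well above background on all 6 arrays, and the part of these cells in the Vcan values was not tested. With saline mouse 2 left out, the adjusted test called 2 monocyte and macrophage markers and 5 smooth muscle and pericyte markers higher and none lower, and 2 fibroblast markers higher and 3 lower, beside 4.65% of all features called higher and 5.89% called lower in that setting.

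**Figure D3:**
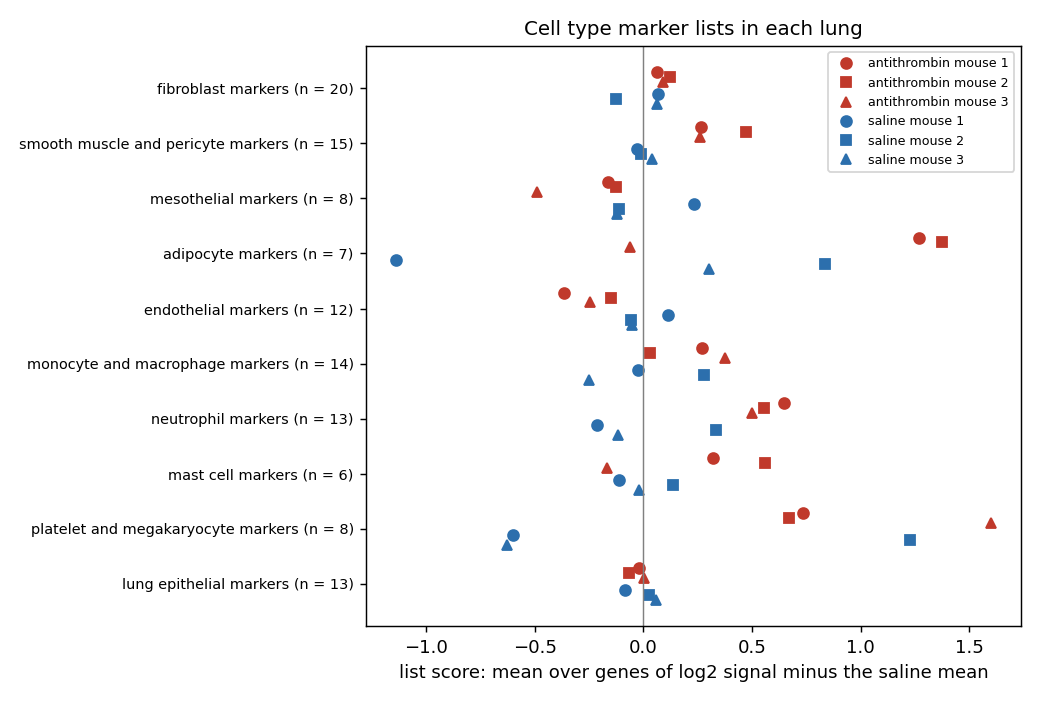
Score of each cell type marker list in each lung, the mean over its tested genes of log2 signal minus the saline mean, on the x axis, with antithrombin mice in red and saline mice in blue. The number of genes tested stands beside each list. Smooth muscle and neutrophil scores are higher in all 3 antithrombin lungs than in any saline lung, endothelial and mesothelial scores are lower in all 3 than in any saline lung, and saline mouse 2 lies among the antithrombin lungs for the platelet list.

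The small leucine-rich proteoglycans of the set gave no difference beyond the spread between mice. Decorin (Dcn), which binds collagen and transforming growth factor beta, read 5.93, 6.12 and 5.33 in antithrombin lungs, against 5.98, 5.55 and 6.49 in saline lungs. The means were 5.79 ± 0.41 with antithrombin and 6.01 ± 0.47 with saline (SD, n = 3 each), a difference of -0.21 log2 (95% interval -0.91 to 0.49, limma's adjusted p = 0.685). Its range within either group was wider than the difference between them. Biglycan (Bgn), a structural proteoglycan that also signals when released from matrix, read 0.21, 0.43 and -0.05 in antithrombin lungs, against 0.21, 0.05 and 0.46 in saline lungs. Its difference was -0.04 log2 (95% interval -0.45 to 0.36, limma's adjusted p = 0.895). Bgn and Dcn were lowest in antithrombin mouse 3 and highest in saline mouse 3, and each lost its negative sign when either of those mice was left out.

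Lumican (Lum), which regulates collagen fibril width and lies next to Dcn on chromosome 10, read -1.82, -1.66 and -2.08 in antithrombin lungs, against -2.77, -2.62 and -1.55 in saline lungs. Saline mouse 3 was the highest of all 6 and the other saline mice the lowest, so the groups overlapped through 1 mouse. The difference was 0.46 log2 (SE 0.32, 95% interval -0.31 to 1.24, limma's adjusted p = 0.420). Without saline mouse 3 it was 0.84 log2 with limma's unadjusted p = 0.00228 and adjusted p = 0.338. Saline mouse 3 was the highest saline lung for all 3 genes.

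Of 15 other genes of this family, 13 were tested and none passed the adjusted test. Before adjustment 4 were higher and 1 lower, beside 8.73% and 12.9% of all features. The median difference was 0.31 log2, beside -0.05 log2 over all features. Ecm2 read -2.87, -2.59 and -2.49 in antithrombin lungs, against -3.18, -3.49 and -3.82 in saline lungs, with no overlap (0.85 log2, SE 0.19, limma's adjusted p = 0.152). Podnl1 differed by 0.77 log2 (adjusted p = 0.193) and Chad, the gene of the cartilage protein chondroadherin, by 1.22 log2 (adjusted p = 0.198, both limma). For Chad saline mouse 2 read -1.10, inside the antithrombin range, and without that mouse the difference was 1.71 log2 with limma's adjusted p = 0.0335. Without that mouse 4.65% of all features were called higher and 5.89% lower. The other genes with an unadjusted p under 0.05, named after their values were seen, were Optc at 0.80 log2 and Tsku at -0.35 log2. Bgn and Dcn lay below the median of these relatives and Lum above it.

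Serglycin (Srgn) differed little. It read 5.46, 5.25 and 5.16 in antithrombin lungs, against 5.37, 5.53 and 5.47 in saline lungs. Antithrombin mouse 1 lay within the saline values and the other antithrombin mice below them. The means were 5.29 ± 0.15 with antithrombin and 5.46 ± 0.08 with saline (SD, n = 3 each), a difference of -0.17 log2 (SE 0.12, 95% interval -0.46 to 0.12, limma's adjusted p = 0.425). Over the 18 alternatives run, the difference stayed negative, between -0.26 and -0.10 log2.

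The granule proteins and chemokines that serglycin binds were read beside it, with 14 of 15 tested. None passed the adjusted test, and 2 were higher before adjustment and none lower, beside 8.73% and 12.9% of all features. The median was 0.22 log2, on the other side of 0 from Srgn, beside -0.05 log2 over all features. Ccl3, a chemokine that binds sulfated glycan chains, read 2.69, 2.45 and 2.93 in antithrombin lungs, against 1.42, 1.96 and 1.56 in saline lungs, with no overlap (1.04 log2, SE 0.19, limma's adjusted p = 0.151). Ccl3 was called without saline mouse 2 at 1.20 log2 (limma's adjusted p = 0.0281), beside 4.65% of all features called higher and 5.89% called lower in that setting. Prtn3, the gene of the neutrophil granule protease proteinase 3, differed by 0.44 log2 (adjusted p = 0.227) and Cma1, the gene of a mast cell chymase, by 0.44 log2 (adjusted p = 0.329, both limma).

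Markers of cell types that hold serglycin were read beside it too. Of 13 neutrophil markers tested, 6 were higher at an unadjusted p under 0.05 and none lower, with a median of 0.50 log2, beside 8.73% of all features higher and 12.9% lower at that level. Their score was 0.65, 0.55 and 0.50 in antithrombin lungs, against -0.22, 0.33 and -0.12 in saline lungs, with no overlap. Their summed signal did overlap, running from 1526 to 1654 with antithrombin and from 1411 to 1606 with saline. The markers with the smallest p were Padi4 at 0.95 log2, Camp, the gene of the neutrophil granule peptide cathelicidin, at 1.21 log2 and Cd177 at 1.15 log2. Lcn2 at -0.15 log2 and Csf3r at -0.01 log2, named after their values were seen, lay below 0 and the other tested markers above it. Of 8 platelet and megakaryocyte markers none had an unadjusted p under 0.05, although the median was 0.98 log2, and their score was 0.73, 0.67 and 1.60 in antithrombin lungs, against -0.60, 1.23 and -0.63 in saline lungs. Of 6 mast cell markers tested none had an unadjusted p under 0.05. Of 12 endothelial markers 1 was higher and 3 were lower before adjustment, and their summed signal ran from 331 to 393 with antithrombin and from 429 to 465 with saline, with no overlap. With saline mouse 2 left out, the adjusted test called 4 neutrophil and 2 platelet markers higher and 2 endothelial markers lower, beside 4.65% of all features called higher and 5.89% called lower in that setting. The part of these cells in the Srgn values was not tested. Among the other lists drawn, 1 of 8 mesothelial markers was lower and none higher before adjustment (median -0.24 log2), with a score of -0.16, -0.13 and -0.49 in antithrombin lungs, against 0.23, -0.11 and -0.12 in saline lungs, apart by a narrow gap, none of 7 adipocyte markers was called either way, and 1 lung epithelial marker was higher and 2 were lower.

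Adamts4 had the largest difference of the set. The protease, which cleaves aggrecan and versican and is induced by inflammatory cytokines in cultured cells, read 0.49, 0.78 and 1.26 in antithrombin lungs, against 0.22, -0.14 and 0.17 in saline lungs. Every antithrombin mouse was above every saline mouse, and antithrombin mouse 3 stood highest. The means were 0.84 ± 0.39 with antithrombin and 0.09 ± 0.19 with saline (SD, n = 3 each), a difference of 0.75 log2 (SE 0.21, 95% interval 0.24 to 1.26), or 1.68-fold, with limma's adjusted p = 0.161 and unadjusted p = 0.0106. The exact two-sided permutation test of this one gene gave p = 0.1, the smallest that 3 mice against 3 allow. The difference ran from 0.54 log2 without antithrombin mouse 3 to 0.93 log2 without antithrombin mouse 1, and limma's unadjusted p was under 0.05 in all 18 alternatives run, while the adjusted p ran from 0.0816 to 0.354 and passed in none. Without saline mouse 2 it was 0.64 log2 (limma's adjusted p = 0.129).

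Adamts9, which encodes a versican-cleaving protease, was also higher in every antithrombin lung, by less. It read 1.72, 1.93 and 1.80 in antithrombin lungs, against 1.68, 1.65 and 1.53 in saline lungs. The means were 1.82 ± 0.11 with antithrombin and 1.62 ± 0.08 with saline (SD, n = 3 each), a difference of 0.19 log2 (SE 0.11, 95% interval -0.07 to 0.46, limma's adjusted p = 0.334). The gap between the lowest antithrombin and the highest saline mouse was small beside the spread within either group, and the interval includes 0. The exact permutation test again gave its smallest possible value, p = 0.1.

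Adamts1, the gene of a protease that also binds heparin and is inducible by inflammatory signals, read 3.22, 3.45 and 3.33 in antithrombin lungs, against 2.96, 3.36 and 3.52 in saline lungs. The groups overlapped, and the difference was 0.05 log2 (SE 0.17, 95% interval -0.34 to 0.45, limma's adjusted p = 0.864). Adamts5, the main aggrecan-cleaving protease of mouse cartilage and a neighbour of Adamts1 on chromosome 16, read -4.06, -4.00 and -4.70 on its brighter probe in antithrombin lungs, against -3.94, -4.23 and -3.32 in saline lungs. Its difference was -0.43 log2 (SE 0.29, 95% interval -1.11 to 0.25, limma's adjusted p = 0.402). Like Bgn and Dcn, it was lowest in antithrombin mouse 3 and highest in saline mouse 3. Its second probe read -5.45, -4.87 and -5.20 in antithrombin lungs, against -5.23, -5.63 and -4.82 in saline lungs, a difference of 0.05 log2 (95% interval -0.52 to 0.62). The 2 probes differed in sign, so no direction is given for Adamts5.

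**Figure D4:**
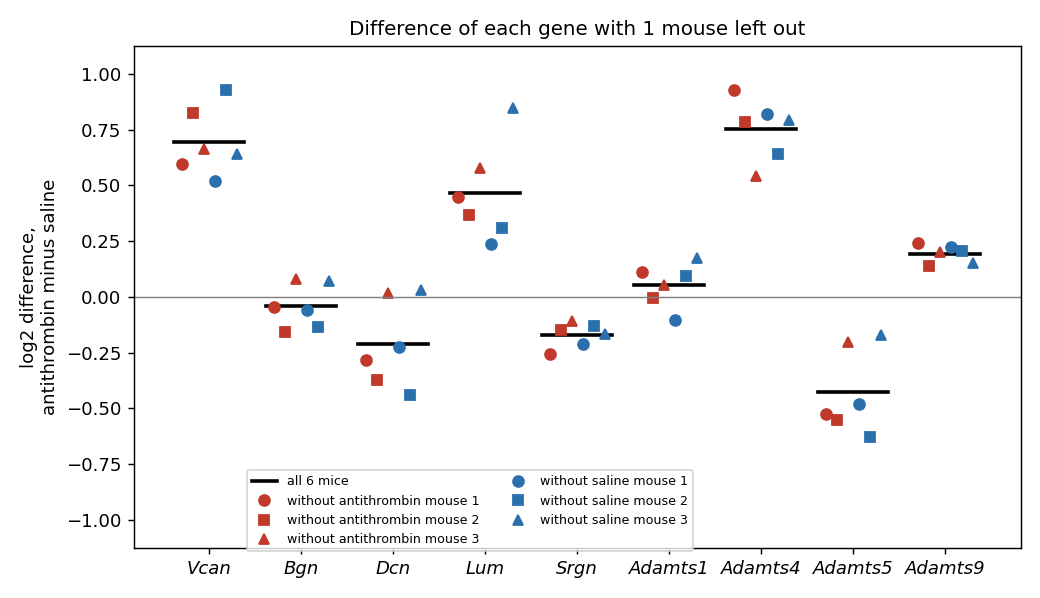
Difference between antithrombin and saline for each gene, in log2 units on the y axis, with all 6 mice (black bar) and with each mouse left out in turn (coloured symbols). Vcan, Lum, Adamts4 and Adamts9 stay above 0, Srgn stays below it, and Bgn, Dcn and Adamts1 cross it. Adamts5 is drawn for its brighter probe, which stays below 0, while its second probe lies at 0.05.

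Of the 15 other ADAMTS protease genes 11 were tested, 3 of them with a difference above 0, against 43% of all features. Of these 11, none passed the adjusted test, 5 were lower before adjustment and none higher, beside 12.9% and 8.73% of all features, and the median difference was -0.41 log2, beside -0.05 log2 over all features. Adamts17 read -4.40, -3.99 and -4.02 in antithrombin lungs, against -3.05, -3.56 and -3.25 in saline lungs, with no overlap (-0.85 log2, SE 0.18, limma's adjusted p = 0.151). Adamts3, the gene of a procollagen N-proteinase, differed by -0.87 log2 (SE 0.21, adjusted p = 0.155) and Adamts7, which encodes a protease of cartilage and vessel matrix, by -0.49 log2 (SE 0.19, adjusted p = 0.208, both limma). The other 2, named after their values were seen, were Adamts2, the gene of another procollagen N-proteinase, at -0.41 log2 and Adamts15, which encodes another versican-cleaving protease, at -0.54 log2. Without saline mouse 2 the genes Adamts2, Adamts3 and Adamts17 were called lower, at -0.57, -1.08 and -0.99 log2 (limma's adjusted p = 0.0387, 0.0293 and 0.0330), beside 4.65% of all features called higher and 5.89% called lower in that setting. Whether the 4 proteases of the set differ from these relatives was not tested.

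**Figure D5:**
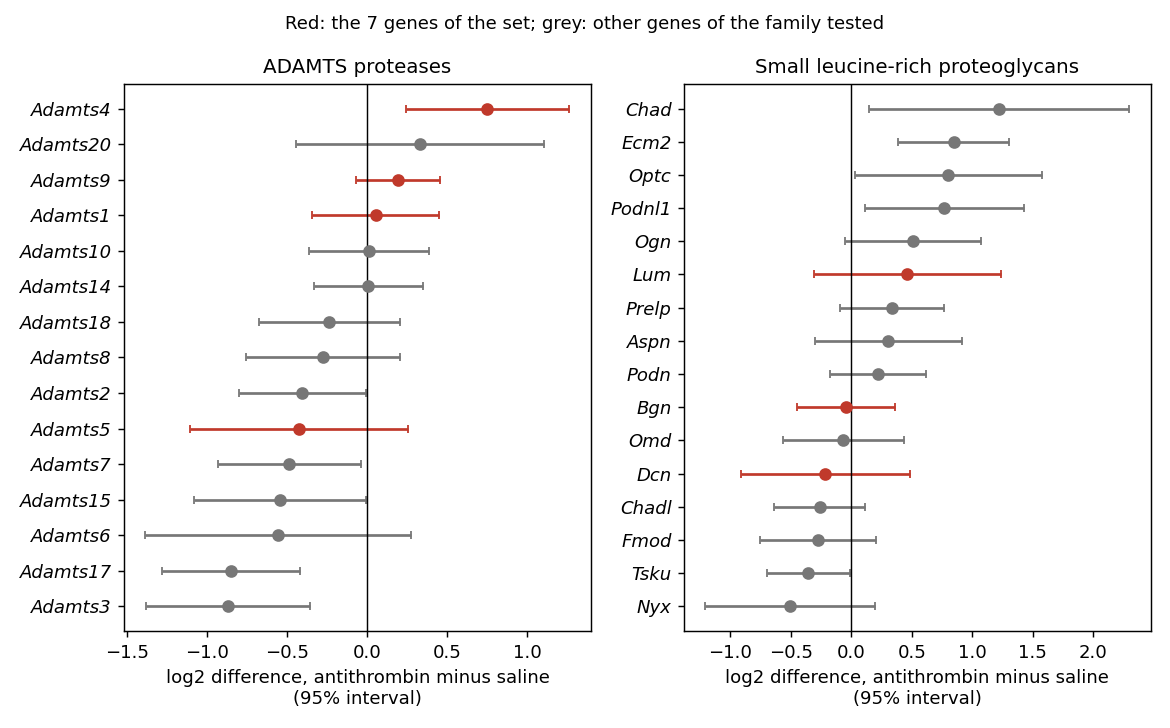
Differences between antithrombin and saline, in log2 units on the x axis with 95% intervals from limma, for every tested ADAMTS protease (left) and small leucine-rich proteoglycan (right). Genes of the set are red and their relatives grey, ordered by difference. Adamts4 is at the top of its family at 0.75 and Adamts3 at the bottom at -0.87.

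All 7 ADAMTS-like genes, papilin among them, were tested, and none had an unadjusted p under 0.05 (median -0.09 log2). Of 9 genes for inhibitors and clearance of ADAMTS proteases 8 were tested, and none passed the adjusted test. Before adjustment 1 was higher and 1 lower, beside 8.73% and 12.9% of all features. Timp3, the main inhibitor of ADAMTS4 and ADAMTS5, read 6.50, 6.62 and 6.31 in antithrombin lungs, against 7.08, 6.58 and 6.95 in saline lungs. Saline mouse 2 lay inside the antithrombin range and the other saline mice above it, and the difference was -0.39 log2 (SE 0.16, 95% interval -0.78 to -0.004, limma's adjusted p = 0.228). Without saline mouse 2 it was -0.54 log2 with limma's adjusted p = 0.0600. Timp2 differed by -0.31 log2 (adjusted p = 0.249), and Mug1, which encodes a broad protease inhibitor of the alpha-macroglobulin family, by 0.53 log2 (adjusted p = 0.210, both limma).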

How the data were processed

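Lung RNA of 6 mice was hybridised to 6 one-colour arrays on 1 slide, scanned on 1 date, and groups were taken from the sample titles. The scanner output as deposited gives each spot's intensity and flags, made with Agilent Feature Extraction 10.7.3.1 per the file headers, while the submitters' processing notes name version 9.1. Its processed signal has the background subtracted and is not scaled across arrays, per the file headers. The deposited value table holds log2 values. After a shift per array and a constant per probe these matched the scanner values within 0.01 log2 for 99.99% of 56562 probes, so their scaling and centring are unknown, and the column medians ran from -0.0369 to 0.0763.

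The log2 processed signal minus each array's 75th percentile was used, without control spots and outlier spots, and spots of a probe were averaged. Accessions matched to RefSeq (GRCm38.p6) named 32994 probes and left 23611 unnamed. The brightest probe stood for a gene, and features well above background on at least 3 arrays were tested two-sided in limma 3.58.1 (lmFit, eBayes; R 4.3.3) with Benjamini-Hochberg adjustment. The count of arrays limits the precision. On simulated data for this comparison with 32450 features, 44 of 100 genes changed 2-fold and 87 of 100 changed 4-fold were recovered, with 5 false calls. The simulation held 200 changed genes. In the measured data 21.6% of features had an unadjusted p under 0.05 in limma, yet only 2 features passed the adjusted threshold. The simulated data thus differ from the measured data, and the recovered counts do not give the sensitivity of the test on these arrays.

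The alternatives were normexp, quantile and median scaling, other filters and probe rules, the value table, array weights, blocks, and each mouse left out. Mouse numbers are given in the titles of both groups, but same-numbered mice did not deviate together (correlations -0.0096, -0.164 and -0.276), so no pairing was used. The set and the lists were chosen with earlier results of these data known. Named genes are the 9 of the set and the 3 tested genes with the smallest p in each list, with exceptions marked, and the 5 genes whose pattern is nearest to Vcan, Dcn, Srgn and Adamts4, of which 1 is not reported here.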

Additional observations from a re-analysis of the deposited data

How the results depend on the processing

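The count of features past the adjusted threshold was 2 and fell to 1 with normexp, with quantile or median scaling, with no filter or the filter on all 6 arrays, with probes tested singly, with trend and robust variance, and with the array row as a block. It was 0 with the mouse number as a replicate block and 2568 with array weights, and it ran from 0 to 3421 with 1 mouse left out, the highest without saline mouse 2. The cause was not tested. No gene of the set passed in any alternative but Vcan without saline mouse 2, so that count ran from 0 to 1 with 1 mouse left out. The count of set genes with an unadjusted p under 0.05 was 2, was 1 with the replicate block, and ran from 1 to 2 with 1 mouse left out. Under that block limma's adjusted p was 0.302 for Adamts4 and 0.321 for Vcan. Over the 18 alternatives Vcan lay between 0.52 and 0.93 log2 and Adamts4 between 0.54 and 0.93 log2. Bgn turned to 0.015 log2 with array weights. With 1 mouse left out Bgn ran from -0.16 to 0.08, Dcn from -0.44 to 0.031 and Adamts1 from -0.11 to 0.17 log2. Signals near background, as for Ncan and Hapln1, limit what a difference shows.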

Other observations

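Log2 values over the 6 arrays were compared by Pearson's r among the named genes tested, without the unnamed probes. The genes that ran most like Vcan were Ears2 at 0.998, Ap2m1 and Traf3ip3 at 0.997, Psmg2 at 0.996 and Treml2 at 0.995, and 902 named genes had r above 0.9. For Dcn they were Foxn4 at 0.992, Capn6 at 0.991, and Arhgef28, Sgcd and Col23a1 at 0.988, with 220 above 0.9. Among the genes that ran most like Srgn were Mtch1 at 0.995, Oas1e at 0.983, Scand1 at 0.982 and Bin3 at 0.978, with 165 above 0.9. Adamts4 ran most like Lhfpl2 at 0.988, Zfp366 and Arhgef17 at 0.985, Gnl3l at 0.981 and Tvp23b at 0.979, with 141 above 0.9. All 6 points share 1 slide and the group labels, so these values are descriptions. Of all pairs within the set, only those with the strongest r of either sign are given, and others were as weak as 0.015 for Adamts1 with Adamts9. Dcn ran with Bgn at r = 0.958 and with the brighter Adamts5 probe at r = 0.956 over the 6 arrays. The second Adamts5 probe was not compared in this way. Srgn ran against Adamts4 at r = -0.929.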
